A study of Homo sapiens with 8 samples.

Results

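Binding of G3BP1 to the mRNAs of 7 translation initiation and elongation factors was described: EIF3A, EIF3B, EIF4G2, EIF4A1, EIF4B, EEF2 and EEF1A1. The members were the rows of 2 deposited peak lists that lay wholly inside a fixed hg19 window around each gene, on the strand of the gene. They numbered 73 of 4346 peaks, namely 55 of 2925 peaks in the PDS list and 18 of 1421 in the Ctrl list. The genes were selected on the peaks that these lists hold in translation factor genes, so the numbers of peaks and their enrichment are given as a description, without a test. The cells were HEK293T, a widely used line from human embryonic kidney, which were either given 20 µM PDS for 12 h before UV crosslinking or left without treatment (Ctrl). Each condition has 2 libraries of RNA recovered with an antibody to G3BP1 (IP) and 2 input libraries made without antibody, 8 in all, prepared by seCLIP, in which RNA crosslinked to the protein is recovered and sequenced. The labels do not spell out PDS, which in work on guanine quadruplexes usually means pyridostatin, a ligand that stabilises these structures.

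Each list combines both replicates of its condition, so a peak has 1 log2 fold of IP over input and 1 −log10 p, both the authors' own values, and no SD can be given. Any difference between the lists is therefore without a replicate check, and the read depth behind a peak is unknown. A gene without a peak had no stretch that passed the authors' limits; that does not show that G3BP1 was absent from its mRNA.

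G3BP1 is an RNA-binding protein that nucleates stress granules, the cytoplasmic bodies in which untranslated mRNAs and initiation factors gather when initiation stalls. In initiation, the eIF3 complex binds the small ribosomal subunit, the helicase eIF4A with its cofactor eIF4B unwinds structure near the cap, and eIF4G proteins hold the complex together. In elongation, eEF1A brings aminoacyl-tRNA to the ribosome and eEF2 moves the ribosome along the mRNA.

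Peaks were found in 6 of the 7 genes. EIF3A had 25 PDS peaks and 1 Ctrl peak, EEF2 had 17 and 8, EIF3B had 6 and 5, and EIF4A1 had 5 and 4. EIF4B and EEF1A1 had 1 PDS peak each and 0 Ctrl peaks, and EIF4G2 had 0 in both lists. All 6 genes with peaks had more in the PDS list, which was also so for 63.1% of all 1192 loci (stretches in which peaks of either list follow one another on a strand with no gap over 10000 nt). With the PDS list shortened to its 1421 most enriched peaks, the 7 genes held 35 PDS and 18 Ctrl peaks, and no gene had more Ctrl peaks. The 2 genes that still had more PDS peaks were EIF3A, with 14 PDS peaks and 1 Ctrl peak, and EEF2, with 12 and 8, and 33.4% of the 847 loci that then held a peak had more. EIF3B and EIF4A1 then had equal numbers, 5 and 4 in each list. EIF4B and EEF1A1 had 0, as their PDS peaks (log2 folds 3.14 and 3.13) lay below that limit. Joining same-strand peaks within 50 nt into regions left 19 PDS and 10 Ctrl regions in the 7 genes (2036 and 1176 in the whole lists), and EIF4A1 then had fewer PDS regions (2) than Ctrl regions (3). The bound length was 2240 nt in PDS and 1014 nt in Ctrl, where the whole lists covered 196589 nt and 112841 nt. Without EIF3A it was 1369 nt in PDS and 925 nt in Ctrl. The ratio of PDS to Ctrl peaks was 3.06 in the 7 genes and 2.06 in the whole lists, and without EIF3A it was 1.76, so that 1 gene set on which side of the whole lists the members lay.

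**Figure D1:**
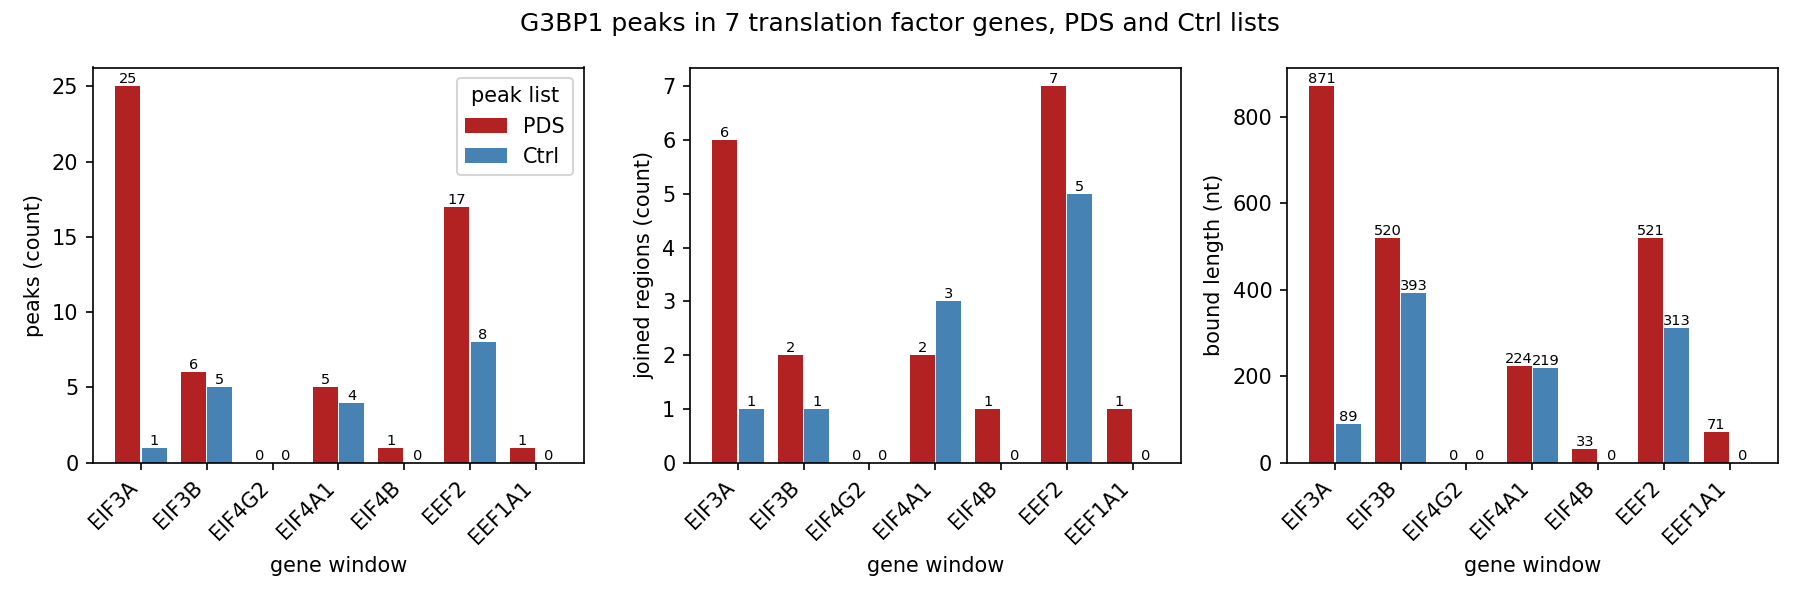
Peaks, regions joined within 50 nt, and bound nucleotides in each of the 7 gene windows, with PDS bars left of Ctrl bars and the value above each bar. EIF3A has the widest gap between the lists by each count (25 PDS peaks and 1 Ctrl peak), while EIF4A1 differs by 1 peak and has nearly the same bound length in both (224 nt in PDS, 219 nt in Ctrl).

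EIF3A encodes the largest subunit of eIF3, part of the scaffold of that complex. Its 25 PDS peaks covered 871 nt of chromosome 10 (minus strand), and its single Ctrl peak covered 89 nt. All lay between 31032 and 43678 nt from the upstream edge of the 45901-nt window (distances run in the direction of transcription and include introns). Joined, the PDS peaks formed 6 regions, of which 1 overlapped the Ctrl peak.

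The Ctrl peak, at 120801750 to 120801838, had a log2 fold of 3.08 (8.43-fold over input) and a −log10 p of 21.9, and 92.0% of Ctrl peaks were at least as enriched. The same place carried the most enriched PDS peaks of the gene. The highest PDS peak, at 120801786 to 120801820, had a log2 fold of 4.57 (23.8-fold), and 10.9% of PDS peaks were at least as enriched. The 4 PDS peaks that met the Ctrl peak had log2 folds of 4.12, 4.24, 4.57 and 4.49, each above its 3.08. Over the 84 nt bound in both lists the mean log2 fold was 4.43 in PDS and 3.08 in Ctrl, a difference of 1.36. Over all 47980 nt bound in both lists in the whole series the difference was 0.26, so EIF3A lay above the whole in this direction, untested.

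The other 21 PDS peaks of EIF3A met no Ctrl peak, and 3 of them lay within 100 nt of the one Ctrl peak. A second stretch, 231 to 442 nt away, held 6 PDS peaks at 120802070 to 120802284, with a highest log2 fold of 3.88. Farther off, regions at 120803566 to 120803654, 120797750 to 120797827, 120796722 to 120796821 and 120809313 to 120809368 had highest log2 folds of 3.69, 3.90, 3.98 and 3.70. These highest values lay below that of the stretch around the Ctrl peak (4.57), although single peaks of that stretch were as low as 3.47. By number of PDS peaks, 13 of 1192 loci, EIF3A included, held at least as many, and 4 had at least as large an excess of PDS over Ctrl peaks.

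EIF3B encodes another core subunit of eIF3. Unlike those of EIF3A, all its Ctrl peaks and 5 of its 6 PDS peaks lay at the upstream end of the window, in a run with similar borders in both lists. On chromosome 7 (plus strand), 5 abutting PDS peaks ran from 2394519 to 2394988 and 5 abutting Ctrl peaks from 2394564 to 2394956, between 119 and 588 nt from the upstream edge of the 26001-nt window. All 393 Ctrl nucleotides were also bound in PDS. The 4 inner borders of the run differed by 11, 4, 3 and 11 nt between the lists, and the outer ones by 45 and 32 nt.

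Along the EIF3B run the PDS peaks had log2 folds of 3.83, 3.89, 4.02, 3.98 and 3.63, and the Ctrl peaks had 3.39, 4.17, 5.19, 3.67 and 3.03. The middle peak was the highest in both lists, and the Ctrl profile was the steeper one. That middle peak lay at 2394700 to 2394786 in PDS, with a log2 fold of 4.02 (16.3-fold), and at 2394704 to 2394783 in Ctrl, with 5.19 (36.5-fold). Among all peaks, 26.4% of the PDS list and 1.55% of the Ctrl list were at least as enriched, so the EIF3B Ctrl peak was rank 22 of 1421. Over the nucleotides in common the mean log2 fold was 3.86 in PDS and 3.87 in Ctrl, a difference of -0.02, and PDS was higher at 59.5% of them. The −log10 p ran from 28.7 to 55.1 in the PDS run and from 13.6 to 30.6 in the Ctrl run. A sixth PDS peak, at 2404008 to 2404057 and 9051 nt from the nearest Ctrl peak, had a log2 fold of 3.40 and the lowest −log10 p of the gene, 6.98.

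**Figure D2:**
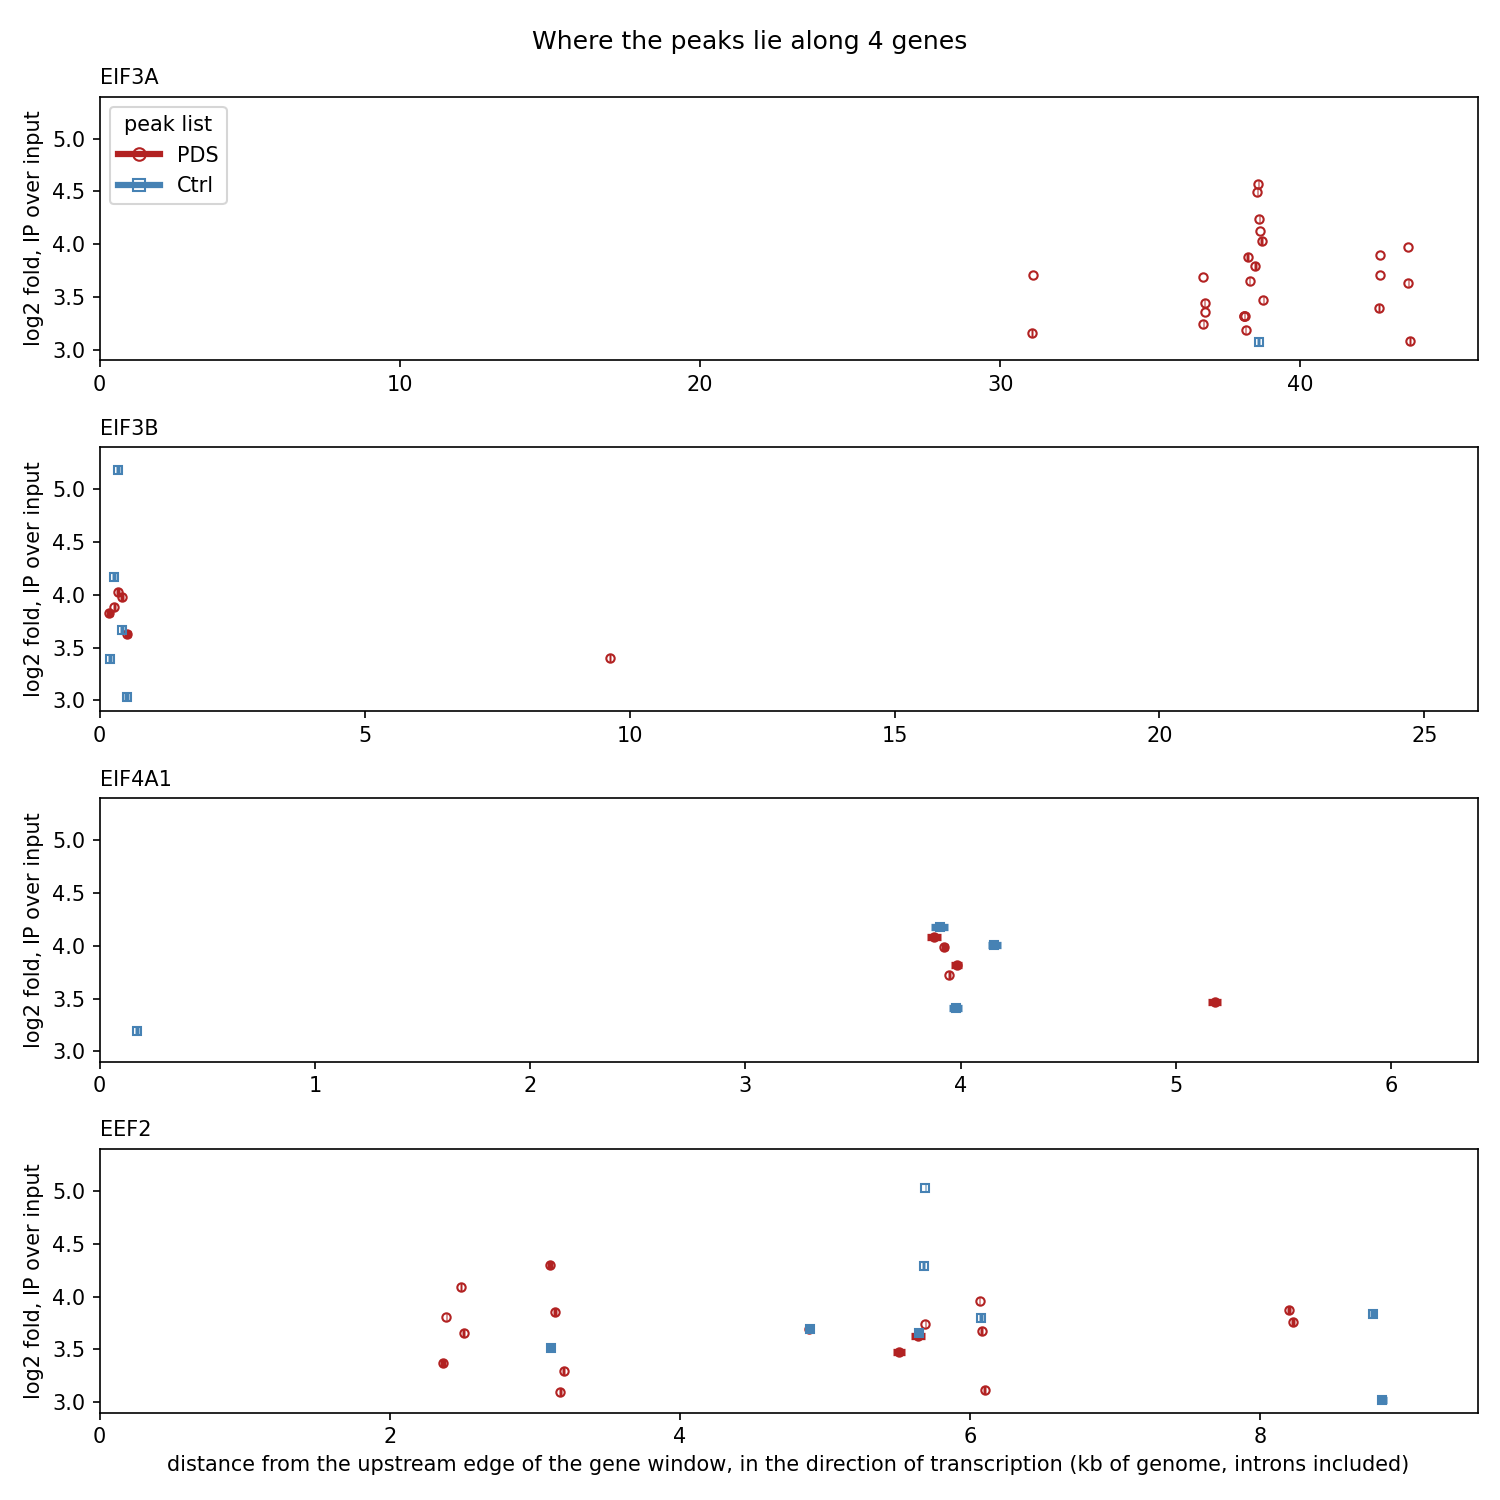
Peaks along the windows of EIF3A, EIF3B, EIF4A1 and EEF2, from the upstream window edge in the direction of transcription (kb of genome), with the log2 fold of IP over input on the vertical axis, which starts just below 3; PDS peaks are red circles and Ctrl peaks blue squares, with bars for their width. EIF3A peaks lie beyond 31032 nt, the EIF3B run lies before 588 nt, and EEF2 peaks of both lists are spread from 2347 to 8876 nt.

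EIF4A1 encodes the DEAD-box helicase of the cap-binding complex. Its best-bound stretch was at the same place in both lists (chromosome 17, plus strand), running from 7479844 to 7480007 in PDS and from 7479862 to 7480007 in Ctrl, with the same downstream end. The highest PDS peak, at 7479844 to 7479908, had a log2 fold of 4.09 (17.0-fold) and a −log10 p of 22.7. The highest Ctrl peak, at 7479862 to 7479942, had a log2 fold of 4.17 (18.1-fold) and a −log10 p of 21.8. These values were close, and over the 142 nt bound in both lists the mean log2 fold was 3.93 in PDS and 3.85 in Ctrl. PDS was higher at 43.0% of these nucleotides.

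Outside this stretch the EIF4A1 peaks differed between the lists. A PDS peak at 7481151 to 7481210 (log2 fold 3.46) lay 965 nt from the nearest Ctrl peak. A Ctrl peak at 7480127 to 7480185 (log2 fold 4.01) lay 119 nt from the nearest PDS peak, and another at 7476165 to 7476182 (3.19) lay 3661 nt away, near the upstream edge of the window. Per the RefSeq gene table (GRCh38), 3 snoRNA genes, SNORA48, SNORD10 and SNORA67, and the readthrough gene SENP3-EIF4A1 share the EIF4A1 locus. The same table places SNORA19 and another snoRNA gene within EIF3A, SNORD37 within EEF2 and SNORD97 within EIF4G2. Peaks were not assigned between these genes and their hosts here.

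EIF4B encodes the RNA-binding cofactor of the helicase. Its only peak was the PDS peak at 53421907 to 53421939 of chromosome 12 (plus strand), whose log2 fold was 3.14 (8.80-fold) and whose −log10 p was 4.76. It was close to the lower limits of the list, in which 86.1% of peaks were at least as enriched and the lowest −log10 p was 4.31. EIF4G2 encodes an eIF4G-like protein that lacks the cap-binding factor's docking site and serves alternative modes of initiation. No peak of either list lay in its window on either strand, and the nearest same-strand peak was 1482356 nt away in PDS and 35934702 nt away in Ctrl.

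EEF2 encodes the translocase of elongation and had peaks at several places along the gene in both lists. On chromosome 19 (minus strand), 17 PDS peaks formed 7 regions and covered 521 nt, and 8 Ctrl peaks formed 5 regions and covered 313 nt. The lists met in 4 regions each, and 187 nt were bound in both, 35.9% of the PDS and 59.7% of the Ctrl nucleotides, against 24.4% and 42.5% over the whole lists.

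The highest PDS peak of EEF2, at 3982377 to 3982413, had a log2 fold of 4.30 (19.7-fold) and met a Ctrl peak at 3982360 to 3982414 with a log2 fold of 3.52. The order was the opposite at the highest Ctrl peak, which was 4 nt wide, at 3979806 to 3979809, with a log2 fold of 5.03 (32.7-fold). The PDS peak there began at the same nucleotide, was 5 nt wide and had a log2 fold of 3.74. At this place the Ctrl run held 2 further peaks, with log2 folds of 4.29 and 3.66, and the wider PDS peak beside it, at 3979811 to 3979905, had 3.63. At 3980589 to 3980625 in PDS and 3980583 to 3980627 in Ctrl the log2 folds were both 3.69. Thus the fold in EEF2 was higher in PDS at some shared places, lower at others and equal to 2 decimals at 1. The mean over the shared nucleotides was 3.81 in PDS and 3.73 in Ctrl, but PDS was higher at only 30.5% of them.

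Each list also had EEF2 regions of its own. PDS alone had regions at 3982981 to 3983015 (highest log2 fold 4.09), 3983108 to 3983153 (3.80) and 3977256 to 3977311 (3.87). Ctrl alone had a region at 3976624 to 3976740 (3.83), 515 nt from the nearest PDS peak and the farthest downstream of all EEF2 regions. All 8 Ctrl peaks of EEF2 had a −log10 p of 26.5 or more, whereas the median of the whole Ctrl list was 11.9.

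EEF1A1 encodes the tRNA-delivering factor eEF1A and is among the most abundant mRNAs of dividing cells. Its only peak was the PDS peak at 74228493 to 74228563 of chromosome 6 (minus strand), whose log2 fold was 3.13 (8.73-fold) and whose −log10 p was 7.60. In the PDS list 87.4% of peaks were at least as enriched. The gene has many processed pseudogene copies, and the treatment of reads that match several places is not given in the sources used here, so its value is uncertain.

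**Figure D3:**
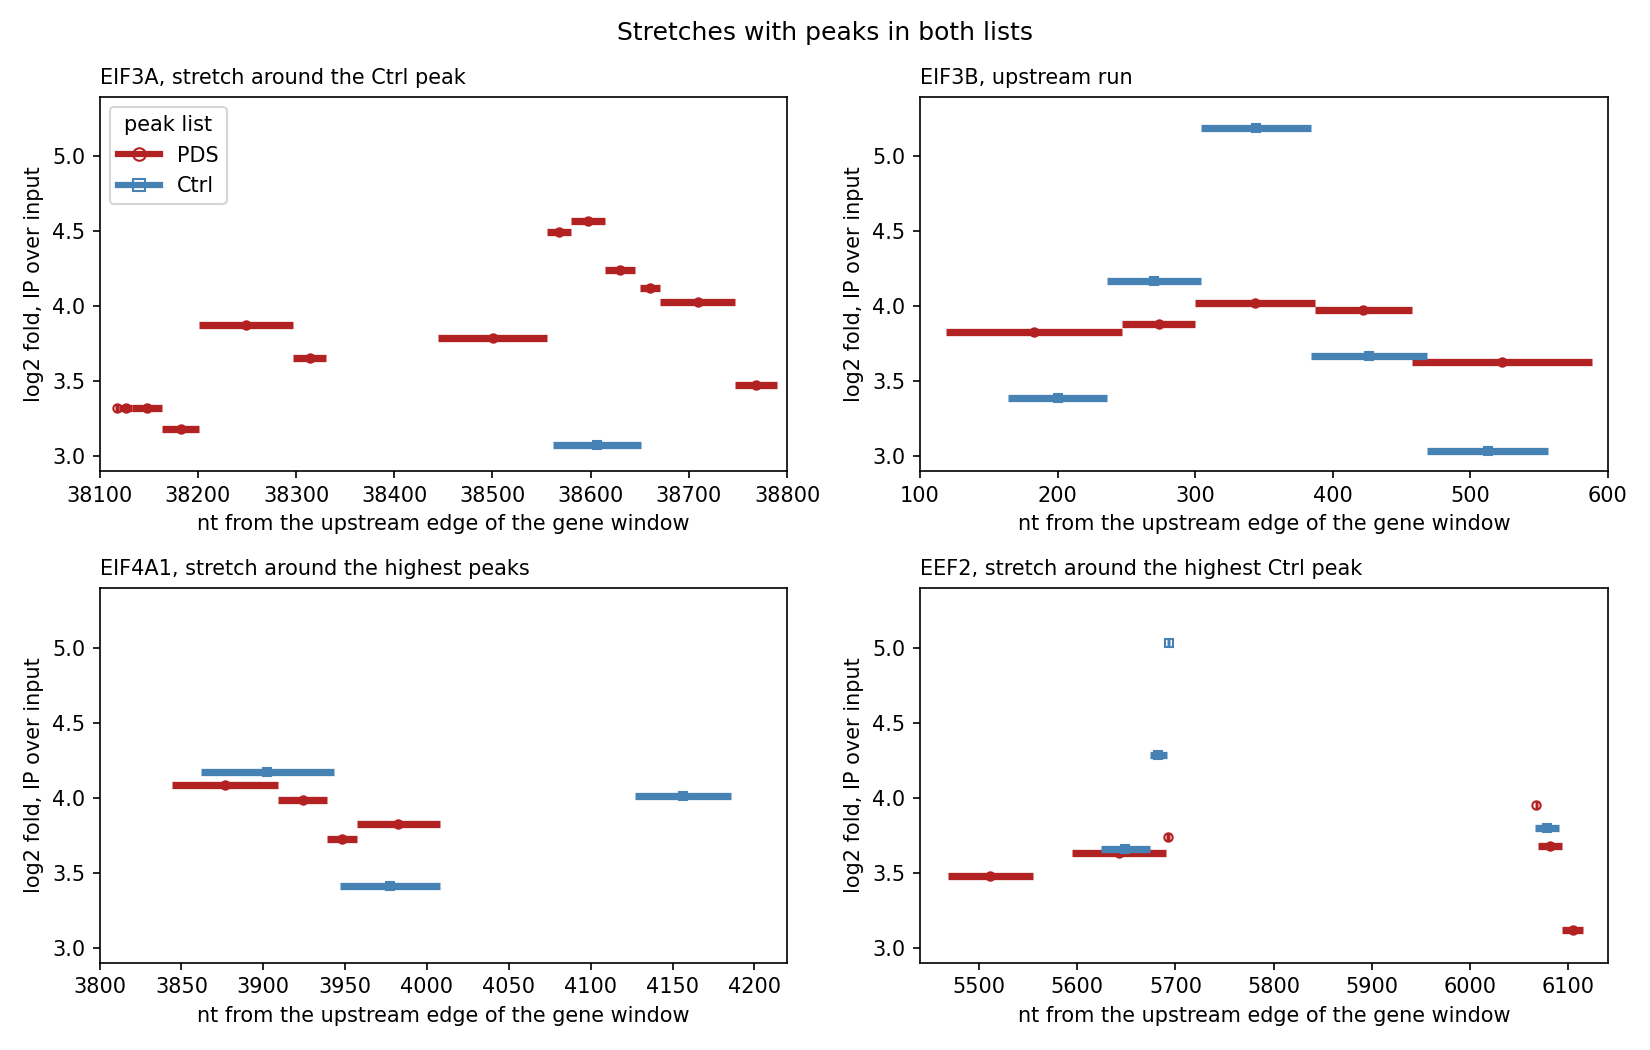
Enlarged stretches of EIF3A, EIF3B, EIF4A1 and EEF2 in which both lists had peaks, with distance from the upstream window edge (nt) on the horizontal and log2 fold of IP over input on the vertical axis, which starts just below 3; each bar is 1 peak, PDS in red and Ctrl in blue. The PDS bars lie above the Ctrl bar in EIF3A (up to 4.57 in PDS, 3.08 in Ctrl), while the highest bars of EIF3B and EEF2 are Ctrl peaks (5.19 and 5.03).

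Across the 7 genes, 20 of 55 PDS peaks (36.4%, exact 95% binomial interval 23.8 to 50.4%) overlapped a Ctrl peak by at least 1 nt, against 30.6% of the whole PDS list. In the Ctrl list the number was 14 of 18 peaks (77.8%, 52.4 to 93.6%), against 51.5% of the whole Ctrl list. The intervals cover counting error only, and neighbouring peaks of a gene are not independent. The genes were also selected on their peaks, so the intervals are no test against the whole lists. By joined region, 7 of 19 PDS and 7 of 10 Ctrl regions met the other list. The same count over all joined regions is not given here, and the whole-list percentages above are by peak. Whether the region counts are particular to the members was not tested. EIF3A weighed heavily on the PDS share: 4 of its 25 PDS peaks met a Ctrl peak, and without EIF3A the share was 53.3% (16 of 30). The 4 unshared Ctrl peaks were 2 in EEF2 and 2 in EIF4A1. Of the 27 overlapping pairs of peaks, the log2 fold was higher in PDS in 13 and in Ctrl in 14. A peak can belong to several pairs, and some pairs overlapped by only 1 nt. By nucleotide, PDS was higher at 54.1% of those bound in both lists in the 7 genes, against 64.3% over the whole lists. The 4 EIF3A pairs, all with its single Ctrl peak, were all higher in PDS, and EIF3B (4 of 9), EIF4A1 (2 of 5) and EEF2 (3 of 9) were mixed.

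The log2 fold of the members was near that of the lists. Its median was 3.69 in PDS (quartiles 3.38 and 3.89) and 3.68 in Ctrl (3.40 and 4.13), where the whole lists had 3.59 and 3.52. A log2 fold of at least 4 was reached by 9 of 55 PDS peaks (16.4%), against 27.6% of the list, and by 6 of 18 Ctrl peaks (33.3%), against 22.0% of the list.

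The −log10 p of the members was high for the lists. Its median over the members was 33.4 in PDS and 24.9 in Ctrl, above 79.2% of the PDS list and 82.7% of the Ctrl list. This value depends on read numbers as well as on the fold, and the read numbers behind the peaks are unknown. The value 400, read as a stand-in for the highest, was given to 6 PDS peaks, all in EIF3A, and to 0 Ctrl peaks, against 2.80% and 0.563% of the lists. The genes differed: the median was 43.7 for EIF3A, 33.8 for EIF3B, 26.0 for EEF2 and 13.0 for EIF4A1 in PDS, and 30.0 for EEF2, 23.1 for EIF3B and 10.2 for EIF4A1 in Ctrl. EIF4A1 thus lay below the median of its list in both conditions (17.8 in PDS and 11.9 in Ctrl), while its median log2 fold (3.82 in PDS and 3.71 in Ctrl) lay above that of both lists.

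**Figure D4:**
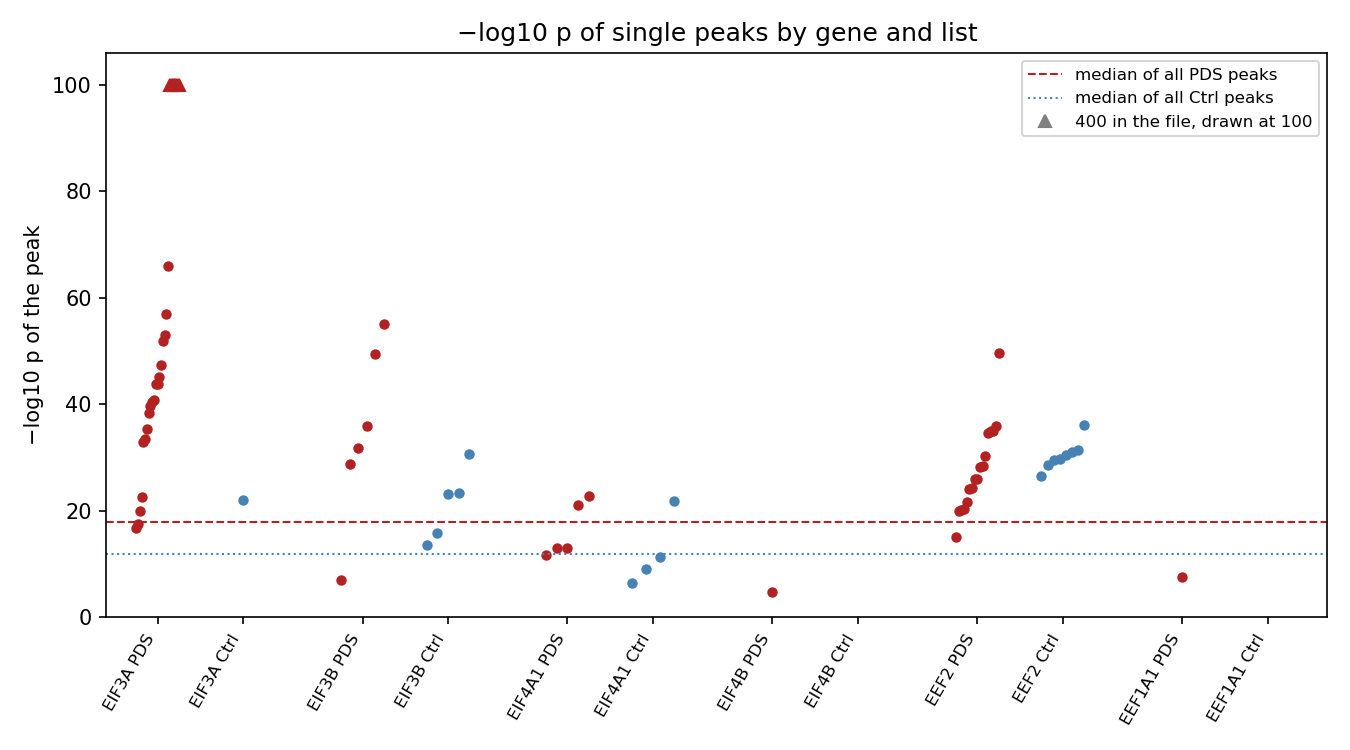
The −log10 p of every member peak by gene, PDS left of Ctrl, with dashed and dotted lines at the medians of the whole PDS list (17.8) and Ctrl list (11.9); triangles drawn at 100 are the 6 EIF3A PDS peaks whose deposited value is 400. The points within a column are sorted by value, and the columns of EIF4B and EEF1A1 hold 1 PDS peak each.

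Member peaks were narrow and often abutted. The median width was 33 nt in PDS and 60 nt in Ctrl, where the whole lists had 63 nt and 74 nt. Of the PDS peaks, 32 of 55 (58.2%) began where another ended, against 23.7% of the list, and of the Ctrl peaks 7 of 18 (38.9%), against 11.1%. Peaks under 20 nt made up 14 of 55 PDS peaks (25.5%, against 14.7% of the list) and 3 of 18 Ctrl peaks (16.7%, against 6.47%). EIF3A had 8 of these narrow PDS peaks and EEF2 had 5, whereas the EIF3B peaks were at least 50 nt wide in PDS and 68 nt in Ctrl. The joined regions and bound nucleotides given above do not depend on how an unbroken stretch is divided into peaks.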

How the data were processed

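The members and lists were chosen with earlier results of these data known. The submitters' processing notes name cutadapt, UMI-tools and STAR as tools and hg19 as build. The peak caller, its filters and how replicates were joined are not given in the sources consulted. The deposited lists give per peak a value read as −log10 of a p-value and a value read as log2 fold of IP over input, both inferred from their ranges and the usual column order of eCLIP peaks. Starts were taken as counted from 0 and are printed counted from 1. Peaks were assigned to windows, joined and intersected in python 3.11.15 with pandas 2.3.3, numpy 2.4.6 and scipy 1.17.1, and the overlap and joining steps were tested on simulated data. All genes were named, with their highest peak per list and every peak of genes with at most 3; the other peaks named were chosen after their values were seen. No gene models or genome of that build were used, so peak sequences, exons and other translation factor genes were not analysed here. Whether the replicates were separate cultures is not stated in the labels.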

Additional observations from a re-analysis of the deposited data

How the results depend on the processing

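Over the 7 genes, 33 of 56 values under an alternative stayed near the reported one (within 1.5 times for counts, within the exact 95% interval for shares and medians). A threshold of log2 fold at least 4 and −log10 p at least 5 left 9 PDS and 6 Ctrl peaks, and fewer peaks pass by construction. These formed 5 and 4 regions and covered 392 and 309 nt. The shared percentages were 22.2 and 50, and the medians 4.12 and 4.23. Only 1 gene then had more PDS peaks, EIF3A, with 5 PDS and 0 Ctrl peaks. EIF3B and EIF4A1 each had more Ctrl peaks (1 PDS and 2 Ctrl), and EEF2 had 2 in each list. With the PDS list shortened to its 1421 most enriched peaks, 35 PDS peaks and 1439 nt remained, 57.1% of them shared, with a median log2 fold of 3.86 and 2 genes with more PDS peaks. Joining within 50 nt gave 19 PDS and 10 Ctrl regions and a PDS median of 3.87. Reciprocal overlap of 50% left 21.8% of PDS peaks shared. No share of the whole lists under the threshold, the shortened list or the reciprocal overlap is given here. Whether those shares are particular to the members was not tested. Without EIF3A, an alternative chosen after seeing the data, there were 30 PDS peaks on 1369 nt, 53.3% shared, and the ratio of PDS to Ctrl peaks was 1.76 in place of 3.06 (2.06 in the whole lists). For single genes, 109 of 154 alternative values stayed close and 45 were lower. The close ones include genes without a peak in a list, whose values could change only under widened windows. Ctrl counts and lengths also cannot change when only the PDS list is shortened, among the 56 values above as well. The numbers of close values are therefore no measure of stability. Windows widened by 5000 nt held the same number of peaks. No paired analysis was possible because each deposited value already covers both replicates, and no replicate could be left out. Since the depth is unknown, a missing peak is not shown to be missing binding.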
